A study of Homo sapiens with 12 samples.

Results

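The EGF receptor family and its ligands were followed through 10 genes: the receptors EGFR, ERBB2 and ERBB3, the ligands AREG, EREG, HBEGF, TGFA and BTC, the feedback inhibitor ERRFI1 and the sheddase ADAM17. Members were all probe sets that the platform annotation pairs with 1 of these symbols and no other. This gave 32 of the 54675 probe sets on the array, for 9 of the 10 genes. No probe set carried AREG as its only symbol, and AREG was not analysed here. All samples were HK-2 cells, an established line grown from proximal tubule epithelium of a human kidney and immortalised. The 4 groups were cells given a low dose of Ota for 72 h, vehicle-treated control cells at 72 h, cells given the same low dose for 24 h and vehicle-treated control cells at 24 h, with 3 arrays each. Neither the concentration nor the full name of Ota is in the labels. Every group was kept in the same defined medium, which contained recombinant human EGF, hydrocortisone, insulin, transferrin and selenite, so all values were measured with a ligand of EGFR already present. The labels call the 3 samples of a group biological replicates without saying what the cultures shared, so a p-value here covers only the spread among these samples, which may be technical.

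EGFR is a receptor tyrosine kinase at the cell surface that dimerises with itself or with ERBB2 or ERBB3 when a ligand binds. Its ligands are made as membrane-bound precursors, and ADAM17 cuts several of them free, among them amphiregulin, epiregulin, HB-EGF and TGF-alpha. Active EGFR signals through RAS and the MAP kinases ERK1 and ERK2 and through PI3 kinase and AKT, and ERK activity induces inhibitors that act back on the pathway. In the renal proximal tubule, EGFR signalling is known for its part in regrowth of the epithelium after injury.

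Values are log2 GCRMA values, 1 per probe set and array. Probe sets were tested if 3 or more arrays exceeded 4 on this scale, and 18 of the 32 member probe sets, from all 9 genes, passed that filter. The other 14 lay at or near the floor of the scale, and the highest of their values was 4.27, for a TGFA probe set that was above 4 on 2 arrays. Levels of different probe sets are not comparable with each other, so each is set against itself across groups. The threshold for a change was an adjusted p under 0.05 (limma, Benjamini-Hochberg over the 22477 probe sets tested). Within a group, the lowest correlation between arrays over those probe sets was r = 0.982. All 6 epithelial markers (KRT7, KRT8, KRT18, KRT19, CDH1, EPCAM) passed the filter. None of the 9 proximal tubule markers with a probe set did, and their median level was 2.44 to 2.46 in each group, so the defining proximal tubule transcripts measured were at the floor. The summed log2 level of the epithelial markers was 62.5 to 63.5 in Ota cells and 64.9 to 65.7 in control cells at 72 h, and 61.7 to 64.0 in Ota cells and 62.9 to 65.1 in control cells at 24 h. Of fibroblast markers 2 of 6 passed, COL1A1 and DCN. Their summed level over all 6 was 29.3 to 29.7 in Ota cells and 28.0 to 28.6 in control cells at 72 h, and 30.5 to 30.8 in Ota cells and 30.9 to 31.0 in control cells at 24 h, so it was higher with Ota at 72 h and lower at 24 h without overlap. None of the 5 endothelial, 3 leukocyte or 5 distal nephron markers with a probe set passed. RNA quality was read from control probe sets of actin and GAPDH. The 3' actin probe set exceeded the 5' one by 1.28 ± 0.08 in Ota cells and 1.18 ± 0.17 in control cells at 72 h (log2, SD, n = 3 arrays). The 24 h values were 1.17 ± 0.12 in Ota cells and 1.01 ± 0.21 in control cells. The part of these marker and RNA quality differences in the results was not tested.

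In the comparison of Ota with control cells, the ligand genes TGFA and BTC moved in opposite directions at 72 h. BTC did so on the 1 of its 2 probe sets that passed the filter. EGFR was lower on all 5 of its tested probe sets at both times, of which 1 passed. Rose and fell at a single time mean Ota against control cells at that time throughout. At 72 h TGFA rose 1.62-fold, and a probe set of BTC fell by 1.86 on the log2 scale. The EGFR probe set 201984_s_at fell by 0.66 at 72 h and by 0.71 at 24 h. TGFA rose at 24 h as well, 1.38-fold, while BTC was at -0.28 there without passing. At 72 h 3 of the 18 member probe sets had changed, 1 higher and 2 lower, against 28.2% of all probe sets tested (16.4% higher and 11.8% lower). At 24 h 2 of 18 had changed, 1 higher and 1 lower, against 31.0% of all (12.9% higher and 18.1% lower). In this fit, which used no block, the members' shares of calls were thus not above those of the array as a whole. With the replicate number within each time as a block, added after seeing the data, 44.4% of members passed at 72 h against 33.1% of all. At 24 h that block called 33.3% of members against 35.5% of all. The median log2 difference of the 18 was -0.11 at 72 h and -0.12 at 24 h, beside 0.02 and -0.02 over all probe sets tested. Ota arrays lay wholly above or below control arrays for 8 of 18 member probe sets at 72 h (5 higher and 3 lower), beside 49.2% of all (26.3% higher and 22.9% lower). At 24 h the same held for 8 of 18 (4 higher and 4 lower), beside 42.3% of all (19.1% higher and 23.2% lower). In bulk RNA, a lower level in each cell and fewer cells with the transcript cannot be told apart.

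**Figure D1:**
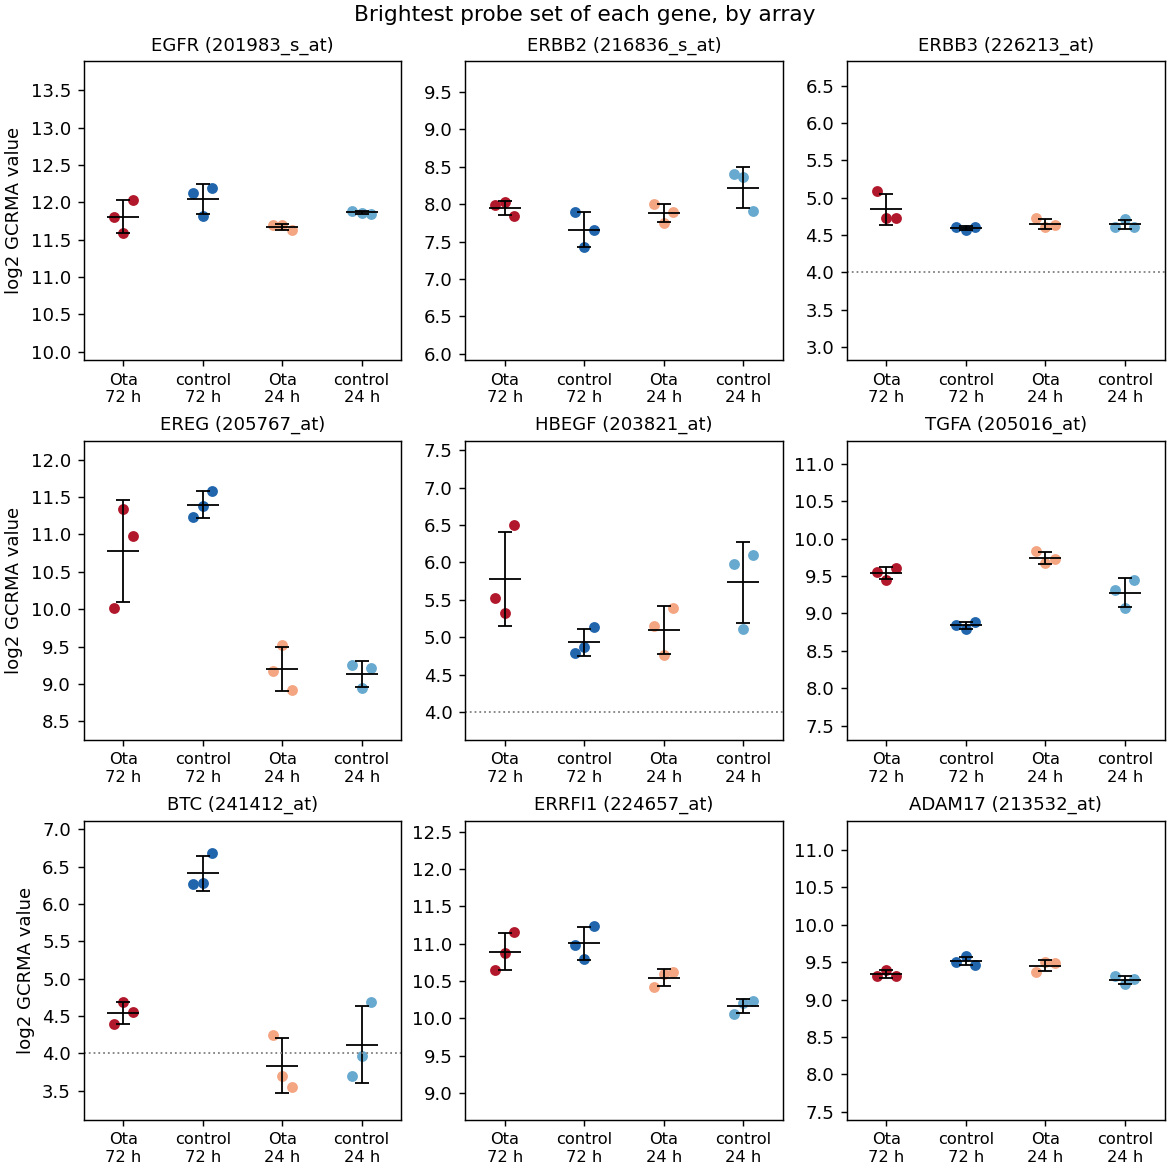
Log2 GCRMA values (y axis) of the brightest probe set of each of the 9 measured genes in the 4 groups (x axis). Points are single arrays, long bars the mean of 3 arrays and whiskers 1 SD, each panel spans the same number of log2 units, and the dotted line marks the filter at 4. BTC stands at 6.27 to 6.68 in control cells at 72 h, above its other 9 arrays, and TGFA in Ota cells lies above control cells at each time.

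Among the receptors, EGFR was read by 9 probe sets, of which 5 passed the filter and 4 stayed between 1.83 and 2.43. On probe set 201984_s_at, Ota cells at 72 h read 9.20, 9.25 and 9.21, against 9.98, 9.62 and 10.04 in control cells at 72 h. At 24 h the same probe set read 8.53, 8.19 and 8.85 in Ota cells, against 9.25, 9.16 and 9.30 in control cells. At each time all 3 Ota arrays lay below all 3 control arrays. The differences were -0.66 ± 0.16 at 72 h and -0.71 ± 0.16 at 24 h (SE, n = 3 per group; limma, adjusted p = 0.00982 and 0.00531), or 0.634 and 0.610 of the control level. The difference between these responses was 0.06 ± 0.22 (limma, adjusted p = 0.891). Over the settings tried and with each array left out, this probe set stayed between -0.78 and -0.58 at 72 h and between -0.87 and -0.55 at 24 h and passed in each.

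The other 4 passing EGFR probe sets had differences of the same sign without passing. At 72 h they were at -0.24 (201983_s_at), -0.35 (210984_x_at), -0.39 (211607_x_at) and -0.25 (224999_at), with adjusted p of 0.0801 to 0.212 (limma). At 24 h they were at -0.19, -0.27, -0.28 and -0.05, with adjusted p of 0.194 to 0.841. The brightest, 201983_s_at, read 11.81, 11.58 and 12.03 in Ota cells and 12.12, 11.82 and 12.19 in control cells at 72 h, and the groups overlapped. At 24 h it read 11.70, 11.70 and 11.63 in Ota cells and 11.89, 11.86 and 11.85 in control cells, with no overlap and a difference of -0.19 ± 0.13. These probe sets read 1 gene from the same RNA and are not separate replicates, and the kinds named _s_at and _x_at can match other transcripts. With the mean of the 5 probe sets, an alternative chosen after seeing the data, EGFR was at -0.38 ± 0.12 at 72 h (limma over all genes, adjusted p = 0.0377) and at -0.30 ± 0.12 at 24 h (adjusted p = 0.0892). The fall called on 201984_s_at was the largest of the 5 readings at each time. At 72 h 211607_x_at passed without Ota 72 h replicate 1 (adjusted p = 0.0483) and without control 72 h replicate 2 (0.0391), and 210984_x_at without control 72 h replicate 2 as well (0.0422). With the replicate number within each time as a block, added after seeing the data, 210984_x_at passed at 72 h (0.0201) and at 24 h (0.0474), and 211607_x_at at 72 h (0.0423). The block on the replicate number alone called 210984_x_at at 72 h (0.027), and 211607_x_at also passed there with arrays at 1 common median (0.0479).

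ERBB2, the co-receptor without a known ligand of its own, showed no called Ota response. Its brightest probe set, 216836_s_at, read 7.98, 8.02 and 7.84 in Ota cells against 7.89, 7.43 and 7.65 in control cells at 72 h. The 24 h values were 8.00, 7.75 and 7.90 in Ota cells against 8.40, 8.36 and 7.91 in control cells. The groups overlapped at each time, and the differences were 0.29 ± 0.15 at 72 h and -0.34 ± 0.15 at 24 h (limma, adjusted p = 0.189 and 0.122). The difference between these responses was 0.63 ± 0.22 (adjusted p = 0.0709), and it passed with the replicate number as a block (0.0469) and without control 24 h replicate 3 (0.79, adjusted p = 0.0215). At 24 h the value was -0.50 without control 24 h replicate 3, the lowest control array, and it then passed (adjusted p = 0.0231). The probe set 210930_s_at was near the floor, with a range of 3.71 to 4.48, and ERBB2 had a further probe set at 1.84 to 1.86.

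ERBB3, a receptor for neuregulins whose own kinase is impaired, was close to the floor throughout. Of its 5 probe sets only 226213_at passed, and the other 4 lay between 2.38 and 3.04. It read 5.08, 4.73 and 4.72 in Ota cells against 4.61, 4.57 and 4.61 in control cells at 72 h, and 4.73, 4.60 and 4.63 in Ota cells against 4.61, 4.71 and 4.61 in control cells at 24 h. The Ota arrays at 72 h all lay above the control arrays, but the difference of 0.25 ± 0.11 did not pass (limma, adjusted p = 0.104), and at 24 h it was 0.01 ± 0.11. ERBB4, the remaining receptor of the family, was below the filter on its brightest probe set, with a highest value of 2.61.

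Among the ligand genes, BTC, EREG and HBEGF had the largest differences between groups of all members tested. The 250 bases before the transcription start are shown for EREG and BTC, which both rose over time in control cells, and for TGFA, which moved the other way there. They are RefSeq sequences of build GRCh38.p14, read 5′ to 3′ on the gene's strand, and capitals mark matches on either strand to 5 motifs.
EREG: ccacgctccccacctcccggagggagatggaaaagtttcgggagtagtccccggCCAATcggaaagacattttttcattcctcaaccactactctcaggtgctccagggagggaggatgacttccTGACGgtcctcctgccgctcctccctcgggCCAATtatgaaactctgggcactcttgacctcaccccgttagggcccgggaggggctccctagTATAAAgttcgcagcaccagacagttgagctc
BTC: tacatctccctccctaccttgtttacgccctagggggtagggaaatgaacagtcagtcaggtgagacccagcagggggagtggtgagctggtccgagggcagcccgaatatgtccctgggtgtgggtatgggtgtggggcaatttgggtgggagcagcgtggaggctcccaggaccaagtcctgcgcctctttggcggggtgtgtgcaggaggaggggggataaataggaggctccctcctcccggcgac
TGFA: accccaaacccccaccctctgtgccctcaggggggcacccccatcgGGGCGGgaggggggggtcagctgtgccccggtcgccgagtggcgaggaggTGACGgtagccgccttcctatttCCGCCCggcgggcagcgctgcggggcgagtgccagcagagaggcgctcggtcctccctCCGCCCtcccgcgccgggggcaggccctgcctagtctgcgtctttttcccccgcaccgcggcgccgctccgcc
The EREG stretch lies at chr4:74364895-74365144, plus strand, the BTC stretch at chr4:74794524-74794773, minus strand and the TGFA stretch at chr2:70553827-70554076, minus strand. The motifs searched were the AP-1 site TGANTCA, the CRE core TGACG, the GC box GGGCGG, the CCAAT box and the TATA box TATAAA. They occur in 6.57%, 21.2%, 42.6%, 32% and 10.7% of the 35116 promoter stretches of the same length. EREG held a TATA box from position -32 to -27 relative to the start, a CRE core from -125 to -121 and CCAAT at -196 and -95. TGFA held a CRE core from -154 to -150 and GC boxes starting at -204, -131 and -73. BTC held none of the 5. The GC content was 58% for EREG, 62% for BTC and 75.6% for TGFA, and no motif was shared by all 3. A match describes letters and shows no binding, and no match says only that these letters are not in this window.

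TGFA encodes TGF-alpha, a ligand of EGFR. On probe set 205016_at Ota cells read 9.56, 9.45 and 9.60 against 8.85, 8.79 and 8.89 in control cells at 72 h. At 24 h Ota cells read 9.83, 9.68 and 9.72 against 9.32, 9.07 and 9.45 in control cells. At each time every Ota array lay above every control array. The differences were 0.70 ± 0.11 at 72 h and 0.46 ± 0.11 at 24 h (limma, adjusted p = 0.000763 and 0.0064), and they differed from each other by 0.23 ± 0.15 (adjusted p = 0.321). The probe set passed at both times under every setting tried and without each array, with ranges of 0.63 to 0.74 at 72 h and 0.36 to 0.55 at 24 h. The dimmer probe set 205015_s_at, with values of 3.36 to 4.91, was at 0.61 ± 0.25 at 72 h and 0.55 ± 0.25 at 24 h and did not pass (adjusted p = 0.0983 and 0.13). It passed at 72 h with the 6 arrays of that time alone (0.0163) and without control 24 h replicate 2 (0.0177), and with the replicate number within time as a block it passed at 72 h (0.0367) and 24 h (0.0493).

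BTC encodes betacellulin, a ligand of EGFR and ERBB4. On probe set 241412_at Ota cells at 72 h read 4.39, 4.69 and 4.56, against 6.27, 6.28 and 6.68 in control cells at 72 h. The 24 h arrays read 4.25, 3.70 and 3.56 in Ota cells, against 3.70, 3.96 and 4.69 in control cells. The 3 control arrays at 72 h stood apart, and the other 9 arrays were all below 5 and partly below the filter, so the low levels are not well measured. BTC fell by 1.86 ± 0.25 at 72 h, to 0.275 of the control level (limma, adjusted p = 0.000355), and was at -0.28 ± 0.25 at 24 h (adjusted p = 0.445). The responses differed by -1.58 ± 0.36 (adjusted p = 0.0135), or adjusted p = 0.0559 without a filter on low values. The other BTC probe set, 207326_at, which the annotation ties to the RefSeq mRNA, stayed between 2.80 and 2.97 in all 12 arrays. The result for BTC therefore rests on 1 of its 2 probe sets.

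HBEGF encodes heparin-binding EGF-like growth factor, a ligand of EGFR and ERBB4. Its probe set 203821_at read 5.53, 5.32 and 6.50 in Ota cells against 4.79, 4.86 and 5.14 in control cells at 72 h. At 24 h it read 5.15, 4.76 and 5.39 in Ota cells against 5.98, 5.12 and 6.10 in control cells. The Ota arrays lay above the control arrays at 72 h, while at 24 h the groups overlapped with the Ota mean lower. Neither difference passed: 0.85 ± 0.32 at 72 h and -0.63 ± 0.32 at 24 h (limma, adjusted p = 0.0728 and 0.17). The difference between them, 1.49 ± 0.46, passed (adjusted p = 0.0476). That call was lost when any of 9 of the 12 arrays was left out, and it was at adjusted p = 0.162 without the filter, 0.0509 after a further quantile normalization and 0.057 after moving all arrays to 1 median.

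The dimmer HBEGF probe set, 38037_at, ranged from 2.99 to 5.00 over the 12 arrays. It was at 0.84 ± 0.30 at 72 h and -0.43 ± 0.30 at 24 h (limma, adjusted p = 0.0601 and 0.322), and the difference of responses was 1.28 ± 0.43 (adjusted p = 0.0652). That difference passed with the replicate number as a block (0.0207), with the block within time (0.0415) and without control 24 h replicate 2 (0.0449). It passed at 72 h without control 24 h replicate 3 (adjusted p = 0.0209). At 72 h its Ota arrays, at 3.87, 4.08 and 4.72, lay above its control arrays, at 3.64, 2.99 and 3.50. Probe set 203821_at passed at 72 h without Ota 72 h replicate 2 or control 24 h replicate 2 (adjusted p = 0.0454 and 0.0429), and at 24 h without control 24 h replicate 2 (0.0468). With the replicate number as a block, it passed at 24 h (adjusted p = 0.035), and both probe sets passed at 72 h (adjusted p = 0.0107 and 0.0174). Same-numbered arrays deviated together at 24 h and only weakly, if at all, at 72 h. With the mean of both probe sets, an alternative chosen after seeing the data, HBEGF passed at 72 h (0.85 ± 0.29, limma over all genes, adjusted p = 0.0414) and in the difference of responses (1.38 ± 0.40, adjusted p = 0.0317), and was at -0.53 ± 0.29 at 24 h (adjusted p = 0.184). The remaining 2 HBEGF probe sets were at 2.19 to 2.59.

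EREG encodes epiregulin, a ligand of EGFR and ERBB4. Its probe set 205767_at read 10.02, 11.34 and 10.99 in Ota cells against 11.23, 11.39 and 11.58 in control cells at 72 h. In the 24 h arrays it read 9.17, 9.52 and 8.92 in Ota cells against 9.26, 8.94 and 9.21 in control cells. Replicate 1 of the Ota cells at 72 h was low within its group, and the Ota and control arrays overlapped at each time. The Ota responses were -0.62 ± 0.28 at 72 h and 0.06 ± 0.28 at 24 h, and neither passed (limma, adjusted p = 0.131 and 0.898). The value at 72 h was -0.24 without Ota 72 h replicate 1 and -0.90 without Ota 72 h replicate 2, where it passed (adjusted p = 0.0351). The other EREG probe set was at 1.90 to 1.94.

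**Figure D2:**
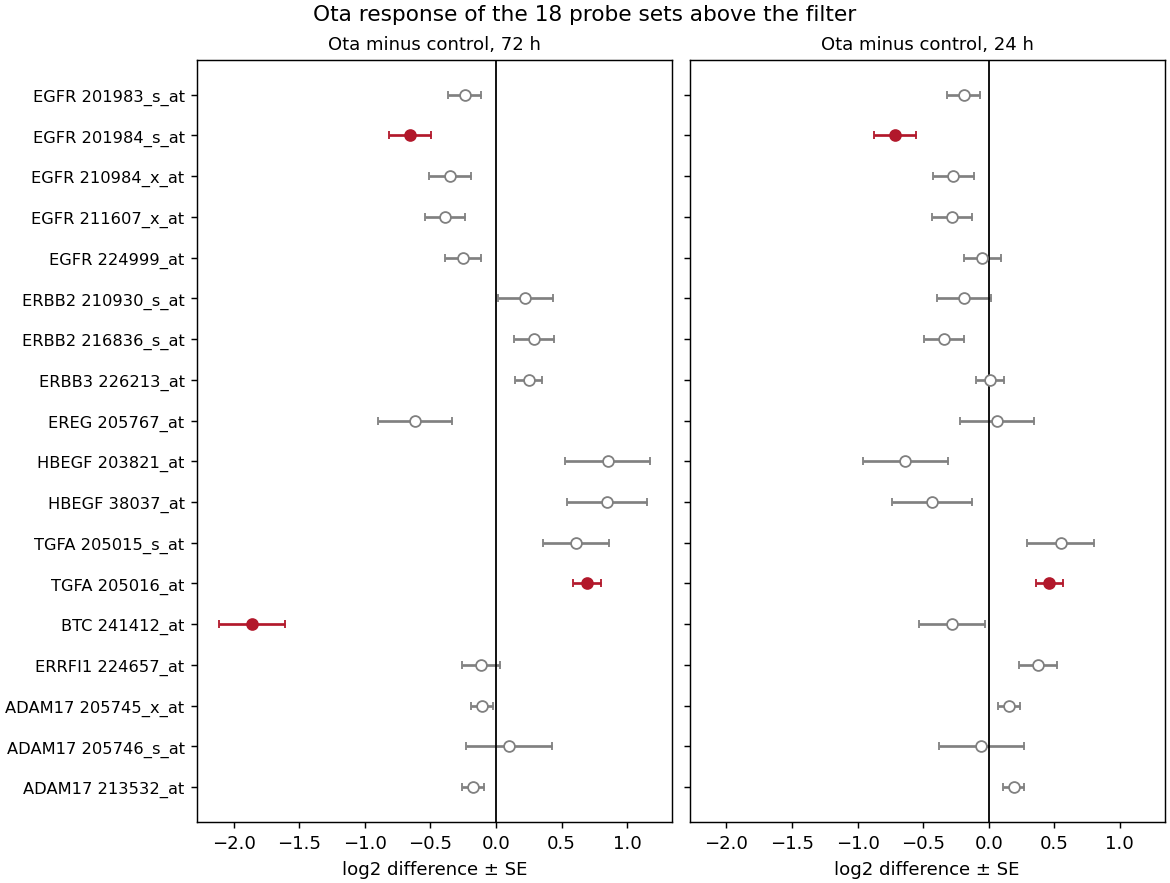
Log2 differences between Ota and control cells (x axis, with the SE of the limma fit as whiskers) for the 18 member probe sets above the filter (y axis), at 72 h on the left and at 24 h on the right. Filled points passed an adjusted p of 0.05. TGFA lies right of 0 at both times, EGFR left of it, HBEGF changes side, and BTC stands furthest left at 72 h.

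ERRFI1 encodes MIG6, an inhibitor that binds the EGFR kinase and is induced by the signal it damps. Its probe set 224657_at read 10.65, 10.88 and 11.15 in Ota cells against 10.98, 10.80 and 11.24 in control cells at 72 h, a difference of -0.11 ± 0.14 (limma, adjusted p = 0.616). Its 24 h values were 10.41, 10.59 and 10.63 in Ota cells against 10.06, 10.20 and 10.23 in control cells. The 24 h groups did not overlap, yet the difference of 0.38 ± 0.14 did not pass (adjusted p = 0.0702). It passed with the replicate number as a block (adjusted p = 0.0256), with a trended and robust variance (0.0482), with the 6 arrays of that time alone (0.0497) and without Ota 72 h replicate 3 (0.049). With that block 4 of the 18 member probe sets passed at 24 h, ERRFI1 and HBEGF 203821_at beside TGFA and EGFR, against 34.6% of all probe sets under the same block.

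ADAM17, the protease that releases several of these ligands from the membrane, moved little. Its brightest probe set, 213532_at, read 9.31, 9.40 and 9.31 in Ota cells against 9.50, 9.58 and 9.47 in control cells at 72 h. At 24 h it read 9.37, 9.50 and 9.49 in Ota cells against 9.32, 9.21 and 9.27 in control cells. The arrays did not overlap at either time, with Ota lower at 72 h and higher at 24 h. The differences were small and did not pass, at -0.18 ± 0.08 and 0.19 ± 0.08 (limma, adjusted p = 0.133 and 0.103), and they differed by -0.37 ± 0.11 (adjusted p = 0.0507). That difference passed in 5 other settings, among them no filter (adjusted p = 0.0184) and quantile normalization repeated (0.0292). Without the filter each response passed as well (adjusted p = 0.05 when rounded at 72 h, and 0.0315 at 24 h). The probe set 205745_x_at was at -0.11 and 0.16, and 205746_s_at, with wider spread, at 0.10 and -0.06. Across the 18 probe sets the Ota responses at the 2 times differed for HBEGF 203821_at and BTC alone, 2 of 18, against 17.0% of all probe sets tested (11.2% higher and 5.77% lower).

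The comparison of 72 h with 24 h in control cells shows the baseline course on which the Ota differences sit. In it 9 of 18 member probe sets changed, 6 higher and 3 lower, against 39.9% of all probe sets tested (20.2% higher and 19.7% lower). The median of the 18 was 0.17, beside 0.00 over all. Groups did not overlap for 13 of 18 (9 higher and 4 lower), beside 50.9% of all (26.1% higher and 24.8% lower). EREG rose 4.79-fold (2.26 ± 0.28, limma, adjusted p = 0.000116). BTC rose as well (fitted log2 difference 2.29 ± 0.25, adjusted p = 4.75e-05), with no fold given because 2 of its 3 control arrays at 24 h were below the filter. ERRFI1 rose 1.79-fold (0.84 ± 0.14, adjusted p = 0.000929), and EGFR rose on 201984_s_at (0.64 ± 0.16, adjusted p = 0.00753). TGFA fell by 0.44 ± 0.11 on 205016_at (adjusted p = 0.00685). These 5 probe sets kept their calls in every other setting run on single probe sets and without each array.

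The other 4 calls in control cells over time were less firm. EGFR 224999_at was at 0.43 ± 0.14, ADAM17 213532_at at 0.25 ± 0.08, ERBB2 216836_s_at at -0.56 ± 0.15 and HBEGF 38037_at at -0.93 ± 0.30 (limma, adjusted p = 0.0311, 0.0291, 0.013 and 0.0312). Each lost its call with some array left out. The highest adjusted p was 0.116 for EGFR 224999_at (without control 72 h replicate 1), 0.0931 for ADAM17 and 0.0542 for ERBB2 (both without control 72 h replicate 2) and, with an array left out, 0.114 for HBEGF (without control 72 h replicate 2). ERBB2 also lost its call without control 24 h replicate 1 (0.0535). EGFR 224999_at lost it without control 24 h replicates 2 or 3 and control 72 h replicate 3, ADAM17 without control 24 h replicates 2 or 3 and control 72 h replicate 1, and HBEGF 38037_at without control 24 h replicate 3 and control 72 h replicate 3. Same-numbered control arrays deviated together across times, and with the replicate number as a block EGFR 210984_x_at, EGFR 211607_x_at and HBEGF 203821_at passed as well (adjusted p = 0.0107, 0.0325 and 0.01), 12 of 18 in all against 43.9% of all probe sets.

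In Ota cells 2 of 18 member probe sets changed from 24 h to 72 h, both higher, against 27.6% of all probe sets tested (17.7% higher and 9.94% lower). EREG rose 2.99-fold (1.58 ± 0.28, limma, adjusted p = 0.00266), and its 3 arrays at 72 h lay above its 3 arrays at 24 h. EGFR rose on 201984_s_at (0.70 ± 0.16, adjusted p = 0.00828). BTC was at 0.71 ± 0.25 and did not pass (adjusted p = 0.0571), although its arrays did not overlap, and it passed in 4 other settings, among them without control 24 h replicate 3 (0.0196), or where Ota 24 h replicate 1 was left out (0.0304). TGFA was at -0.21 ± 0.11 (adjusted p = 0.166). Groups did not overlap for 5 of 18 (4 higher and 1 lower), beside 47.9% of all (27.4% higher and 20.4% lower). The Ota and time comparisons share the control arrays, so the values for a gene in them are not separate evidence. The order of group levels for BTC was control at 72 h, then Ota at 72 h, control at 24 h and Ota at 24 h, and each of the last 3 groups overlapped its neighbour in that order. For TGFA it was Ota at 24 h, Ota at 72 h, control at 24 h and control at 72 h, where the lowest Ota array at 72 h and the highest control array at 24 h met at 9.45.

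**Figure D3:**
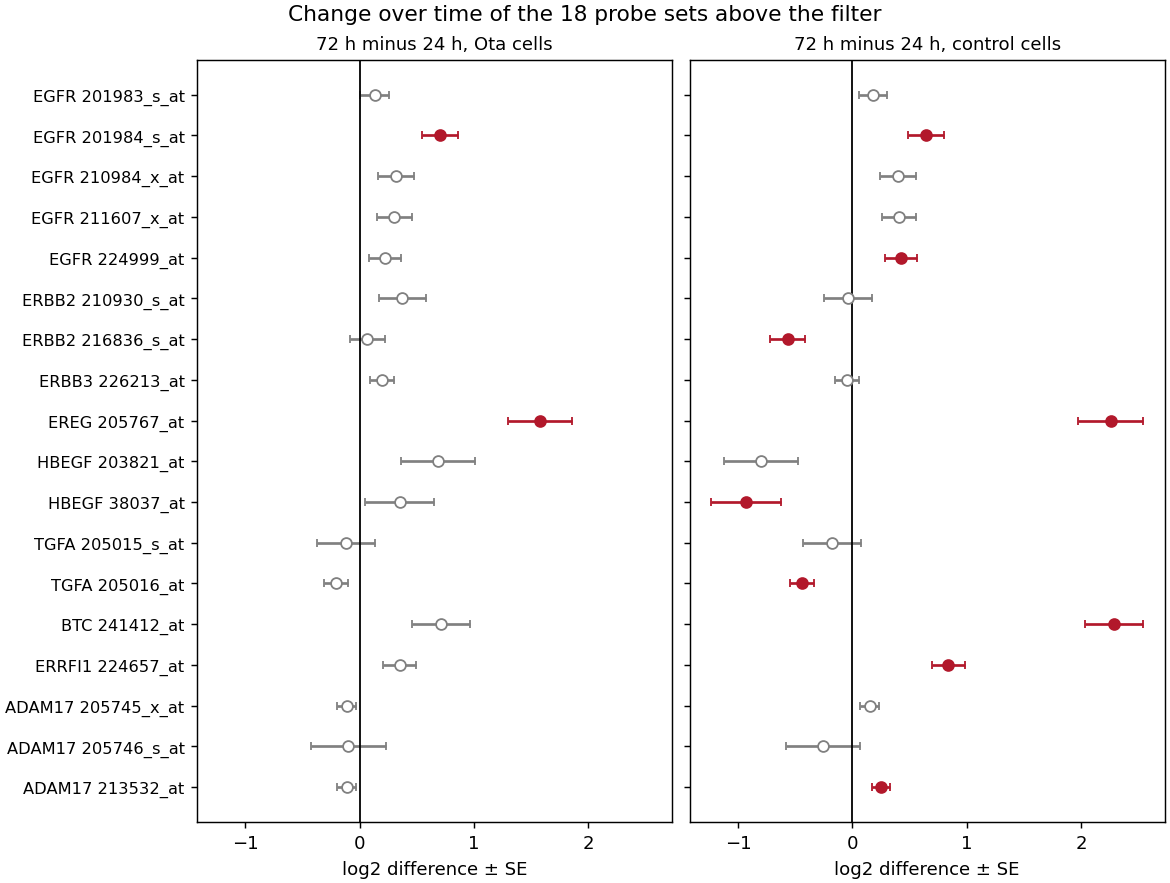
Log2 differences between 72 h and 24 h (x axis, with the SE of the limma fit as whiskers) for the 18 member probe sets above the filter (y axis), in Ota cells on the left and control cells on the right. Filled points passed an adjusted p of 0.05, which 2 did in Ota cells and 9 in control cells. EREG is far right of 0 in both panels, and BTC in control cells.

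Of 83 further genes listed for the EGF receptor pathway by role, 71 had a probe set with 1 symbol and 60 passed the filter on their brightest one. At gene level 11 of the 60 rose and 6 fell at 72 h, against 17.1% and 14.9% of the 10699 genes tested (32.0% in all). After either of the other scalings the 72 h split was 9 higher and 8 lower, and ERK targets had 3 higher. At 24 h 8 rose and 9 fell, against 9.44% and 21.6% (31.0% in all). ERK targets and feedback genes had 4 of 14 higher and 0 lower at 72 h, and 0 higher and 2 lower at 24 h. Their median was 0.32 at 72 h and -0.22 at 24 h, beside 0.01 and -0.06 over all genes. DUSP6, an ERK phosphatase gene induced by ERK, rose 1.71-fold at 72 h (adjusted p = 0.00328), SPRY4, a feedback inhibitor gene, 2.10-fold (0.00675) and EGR1, an immediate-early transcription factor gene, 1.92-fold (0.00772; limma). SPRY4 was near the filter, with means of 5.28 in Ota and 4.21 in control cells at 72 h, so its fold is not well measured. From 24 h to 72 h EGR1 fell by 0.82 in control cells (limma, adjusted p = 0.0102). In Ota cells over that time EGR1 was at 0.43 without passing, while DUSP6 and SPRY4 rose by 0.60 and 0.80. At 24 h IER3 fell by 0.84 ± 0.14 and PHLDA1 by 1.36 ± 0.32 (limma, adjusted p = 0.000972 and 0.0075). However, the 6 PHLDA1 probe sets above the filter ranged from -1.36 to 2.23 there, and 225842_at rose (adjusted p = 0.000259). At 72 h PHLDA1 counted as unchanged, at 0.17 on its brightest probe set. Its dimmer probe sets 217998_at, 217999_s_at and 225842_at rose by 1.58, 1.85 and 2.86 there (limma over probe sets, adjusted p = 0.000748, 0.00426 and 9.14e-05). PHLDA1 217997_at and 218000_s_at were at -0.25 and 0.20 at 72 h without passing. The response differed between the times for 5 of the 14, all in the direction of higher at 72 h, beside 15.5% of all genes in that direction and 5.79% in the other. PHLDA1 was among these 5 on its brightest probe set, and none of its dimmer probe sets passed in that difference. Over the 60 listed genes the responses differed for 12, 11 higher and 1 lower, beside 21.3% of all genes, and the split was 8 and 3 with arrays at 1 common median. From 24 h to 72 h, 16 of the 60 rose and 4 fell in Ota cells, beside 22.2% and 9.99% of all genes (32.2% in all), or 11 and 9 with arrays at 1 common median. In control cells 11 rose and 12 fell, beside 22.7% and 23.6% (46.4% in all).

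**Figure D4:**
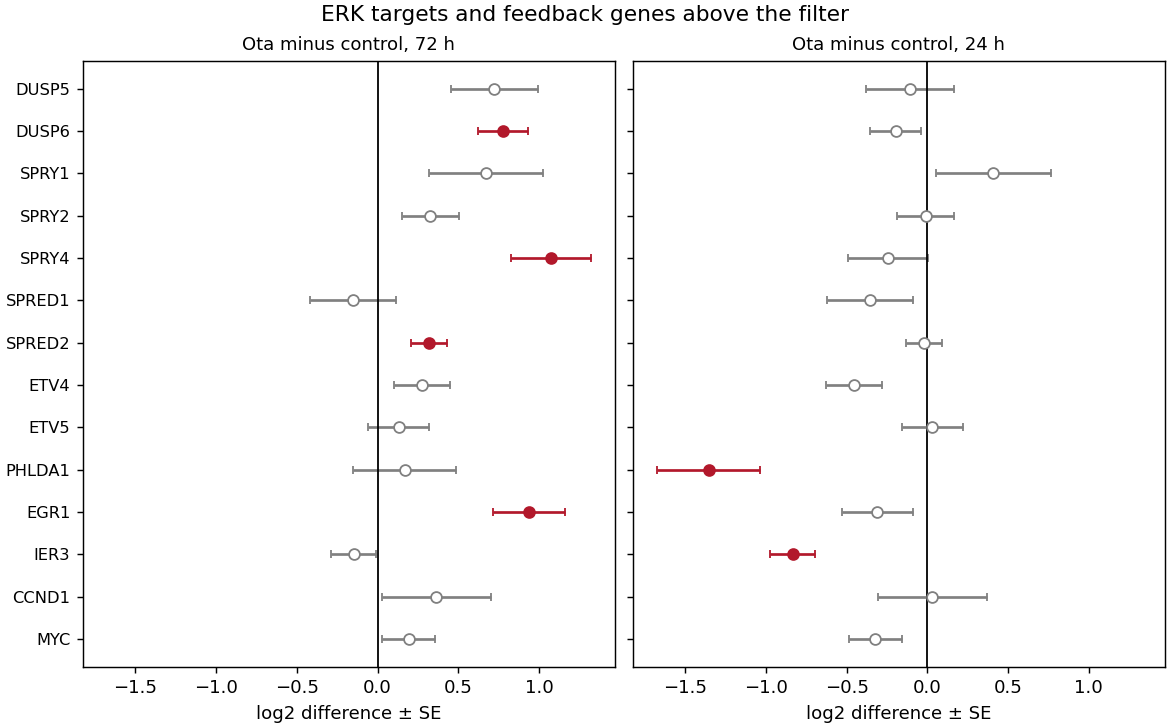
Log2 differences between Ota and control cells (x axis, with the SE of the limma fit as whiskers) for the 14 ERK target and feedback genes above the filter (y axis), each on its brightest probe set, at 72 h on the left and at 24 h on the right. Filled points passed an adjusted p of 0.05, which 4 did at 72 h, all right of 0, and 2 at 24 h, both left of it.

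Among the other roles, NRG1, a ligand gene of ERBB3 and ERBB4, fell on its brightest probe set, with differences of -1.25 ± 0.40 at 72 h and -3.03 ± 0.40 at 24 h (limma over all genes, adjusted p = 0.0338 and 0.000197). Of 4 dimmer NRG1 probe sets above the filter, 3 were at -0.20 to 0.16 at 24 h and did not pass, and 208241_at fell by 0.81. At 72 h these 4 ranged from -0.44 to 0.28, with both signs, and none passed. EGF, whose product was in the medium, was near the floor on its own probe set, with a highest value of 4.43, and was at 0.05 at 72 h and -0.39 at 24 h without passing. AKT2, a kinase gene downstream of PI3 kinase, rose 3.00-fold at 72 h and 4.83-fold at 24 h on 226156_at (adjusted p = 4.3e-05 and 2.87e-06), while its dimmer probe set 225471_s_at fell by 0.93 at 24 h. STAT3 rose at both times (0.47 and 0.32), AKT1 at 72 h (0.53) and PDPK1 at 24 h (0.31). The sheddase gene ADAM10 fell by 0.28 at 72 h, and RHBDF1, a regulator of ADAM17, fell by 0.69 at 24 h. Under the list's adaptor role, a label that does not define what each gene encodes, EPS8 and PLCG1 rose (0.66 and 0.49) and SOS1 fell by 0.39 at 72 h. At 24 h PTPN11 and GRB2 rose (0.32 and 0.33) and SHC1 fell by 0.40. The dimmer SOS1 probe sets 212777_at and 212780_at were at 0.35 and 0.09 at 72 h without passing. At 24 h SOS1 212780_at rose by 0.55, GRB2 215075_s_at was at 0.02 without passing, and SHC1 201469_s_at fell by 0.59. In the kinase cascade, where 6 of 12 listed genes had a probe set, MAP2K1 rose at 72 h (0.31), and KSR1 rose (0.61) and MAPK3 fell by 0.37 at 24 h. Among genes of receptor down-regulation, HGS and RNF41 fell at both times, by 0.34 and 0.64 at 72 h and by 0.55 and 0.83 at 24 h. PTPN1 rose at 72 h (0.95) and LRIG2 at 24 h (0.73), but the dimmer LRIG2 205953_at was at -1.01 at 24 h without passing. From 24 h to 72 h PTPN1, EPS8 and AKT1 fell in control cells, by 0.85, 0.80 and 1.04. In Ota cells they were at 0.16, -0.25 and -0.41 over that time, none passing. On brightest probe sets, these 18 genes beside NRG1, EGF and AKT2 had limma adjusted p of at most 0.0495 in the Ota comparisons named. Dimmer probe sets of some, among them STAT3, PDPK1 and PTPN11, did not pass there.

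Patterns over the 12 arrays were compared by the root mean square difference of mean-centred log2 values, over 10690 genes outside the family. Nearest to EREG were CEBPG, a transcription factor gene, TUBE1, a tubulin gene, and C17orf100, at 0.22, 0.26 and 0.27 log2 units, where EREG itself spanned 2.66. CEBPG stood at 9.26 in Ota cells and 9.90 in control cells at 72 h, and at 7.83 in Ota cells and 7.86 in control cells at 24 h. Nearest to HBEGF, which spanned 1.74, were DUSP23, TAGLN3 and AP1M2, at 0.24, 0.25 and 0.26. Nearest to EGFR on its brightest probe set, which spanned 0.61, were CNPY2, TRIT1 and BEX3, each at 0.11.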

How the data were processed

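Affymetrix arrays were run on RNA of 12 HK-2 cultures, 3 in each of 4 groups, grouped by the sample titles. The authors deposited log2 values, computed with GCRMA per the submitters' processing notes. Its version and settings are not given in the sources used here. GCRMA subtracts modelled background, normalizes arrays by quantiles and summarises probes, so low values sit on a floor and a shift of all RNA is hard to see. Upper quartiles of the 12 arrays lay between 6.88 and 7.10. Precision is limited by having 3 arrays in a group, and read depth does not apply.

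The 62 control probe sets were left out. The platform annotation gave 1 symbol for 41091 probe sets, several for 1801 and none for 11721, and gene IDs let 41037 of the first be brought up to date with RefSeq. limma 3.58.1 (R 4.3.3) fitted 1 mean for each group to the 12 arrays (lmFit, eBayes, 8 residual and 2.93 prior degrees of freedom), for probe sets above 4 on 3 or more arrays. The pathway list was fitted likewise on the brightest probe set of each of 10699 genes. Adjusted p-values are Benjamini-Hochberg over all features fitted. The fit was tested on simulated data. Members and lists were chosen with earlier results of these data known. Named genes were every member, up to 3 changed list genes per role and comparison by smallest adjusted p (given for the Ota comparisons), ERBB4, EGF and EPGN, and the 3 genes nearest in pattern to EGFR, EREG and HBEGF. EPGN was not analysed here. Alternatives were other filters, scalings, variance settings, blocks, the 6 arrays compared, means of probe sets and each array left out.

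Titles number the replicates alike in each group. Deviations of same-numbered Ota and control arrays from their group means correlated at 0.35 to 0.48 at 24 h and at -0.04 to 0.18 at 72 h. For control cells across times they correlated at 0.12 to 0.29, and for Ota cells at -0.08 to 0.14. From these correlations and not from the labels, the numbers may pair arrays at 24 h and in control cells across times. The main fit used no pairing, so its calls and adjusted p-values ignore it. The replicate number entered only as a block in the alternatives.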

Additional observations from a re-analysis of the deposited data

Results flagged for a closer look

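The Ota response of 2 member probe sets differed between the times by a test of the difference itself. For BTC 241412_at the response at 72 h minus that at 24 h was -1.58 ± 0.36 (SE; limma over 22477 probe sets, adjusted p = 0.0135), with group means of 4.55 in Ota and 6.41 in control cells at 72 h, and 3.83 in Ota and 4.12 in control cells at 24 h. For HBEGF 203821_at it was 1.49 ± 0.46 (adjusted p = 0.0476), with means of 5.78 in Ota and 4.93 in control cells at 72 h, and 5.10 in Ota and 5.73 in control cells at 24 h. Over the settings tried the BTC difference lay between -1.87 and -1.37 and missed the threshold in 1, without the filter (adjusted p = 0.0559). The HBEGF difference lay between 1.13 and 1.80, with adjusted p of 0.00794 to 0.162, and missed it in 12 of 19 settings.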

How the results depend on the processing

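Over the 5 comparisons, 1624 of the members' values under another setting kept the side of the threshold they had, 66 came to pass and 30 no longer passed, and no called value changed sign. Without the filter, the difference of responses passed for 1 member probe set, 5 pathway genes and 2440 probe sets in all, against 2, 12 and 3814 with it. With the replicate block, 6 member probe sets passed at 72 h (3 with none), 4 at 24 h (2), 4 in the difference (2) and 5 in Ota cells over time (2), and 26 pathway genes passed at 72 h (17). Of all probe sets 32.0%, 34.6%, 20.8% and 32.1% passed in those comparisons under that block. With the replicate block within time, added after seeing the data, 8 passed at 72 h, 6 at 24 h and 4 in the difference, against 33.1%, 35.5% and 21.3% of all. The added probe sets there were both of HBEGF, TGFA 205015_s_at, EGFR 210984_x_at and EGFR 211607_x_at at 72 h, HBEGF 203821_at, TGFA 205015_s_at, EGFR 210984_x_at and ERRFI1 at 24 h, and HBEGF 38037_at and ERRFI1 in the difference. Same-numbered arrays correlated only weakly at 72 h (-0.04 to 0.18) and in Ota cells over time (-0.08 to 0.14). The labels give them a number in common and nothing more, so it is not known whether the block reflects a pairing there. With each array left out in turn, member counts were 3 to 5 at 72 h, 2 to 3 at 24 h, 1 to 3 in the difference, 2 to 3 in Ota cells and 6 to 11 in control cells over time. Pathway counts were 10 to 20, 11 to 17, 6 to 12, 13 to 21 and 16 to 26, and counts over all probe sets were 4518 to 6818, 5427 to 6748, 2360 to 3897, 3957 to 6660 and 7405 to 9216. Without Ota 72 h replicate 1 the difference had 2360 probe sets and 6 pathway genes, and 72 h had 10 pathway genes. Without control 72 h replicate 1 the difference had 6 pathway genes and without control 24 h replicate 1 it had 7, while 24 h then had 11. Without control 72 h replicate 3, 72 h had 11 pathway genes. Without Ota 24 h replicate 2, Ota cells over time had 3957 probe sets and 13 pathway genes. When arrays were moved to 1 common median of the probe sets above the filter, the median of all probe sets moved by -0.12 in the difference and in Ota cells over time. Calls at 72 h were then 3110 higher and 3407 lower (3695 and 2649 before), in the difference 1872 and 1996 (2516 and 1298), in Ota cells over time 2872 and 3676 (3971 and 2235), for pathway genes at 72 h 9 and 8 (11 and 6), in the difference 8 and 3 (11 and 1) and in Ota cells over time 11 and 9 (16 and 4). With quantile normalization repeated, HBEGF left the difference and ADAM17 213532_at passed in it (-0.43, adjusted p = 0.0292). TGFA, EGFR 201984_s_at and BTC kept their Ota calls in each setting run on single probe sets. With the mean of a gene's passing probe sets, added after seeing the data, ERBB2 and ADAM17 were at -0.30 and 0.05 in control cells over time, and TGFA at -0.31, none passing, and EGFR missed the threshold at 24 h and in Ota cells over time (adjusted p = 0.0892 and 0.0588). HBEGF passed at 72 h (0.85, adjusted p = 0.0414), in the difference (1.38, 0.0317) and in control cells over time (-0.87, 0.0271). The cause of these changes was not tested.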
